A study of Mus musculus with 2 samples.

Results

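Aqp8-dominant cells are segmented cells of the mouse intestine in which transcripts of the water channel Aqp8 were counted at least 3 times and more often than transcripts of the anion exchanger Slc26a3. They were taken from region 1 of the female animal, among cells with at least 10 counts over the 140 genes of the panel. In all, 273 of 1256 such cells met the rule (21.7%, 95% interval 19.5 to 24.1), out of 13707 cells in that region and 31893 in the series. The cells were thus chosen by their measured counts of Aqp8, Slc26a3 and the panel total, so the levels of both genes are given only as a description. The count of 1 gene exceeding that of another says nothing of the number of molecules, because probes differ in number and efficiency, so dominant means dominant in counts.

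The study imaged transcripts in place with MERSCOPE, which reads a fluorescent barcode for each gene in tissue sections. The sections came from duodenum and colon of 1 male and 1 female C57Bl6 mouse, labelled as 6 to 10 weeks old, on standard chow with no genetic change or treatment named. Each animal gave 2 regions, and no label ties a region to duodenum or to colon. The cells therefore cannot be tied to colon by their labels and are called here by their leading gene, not by a cell type.

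Absorptive epithelium of the large intestine takes up salt and water across a brush border. Aqp8 passes water and hydrogen peroxide, Slc26a3 exchanges luminal chloride for bicarbonate, and ezrin (Ezr) ties the actin core of microvilli to the membrane. Prdx6, a peroxiredoxin, reduces peroxides and oxidised phospholipids. In the mouse colon, Aqp8 and Slc26a3 mark differentiated cells near the luminal surface, while the chloride channel Cftr and the potassium channel Kcnn4 serve fluid secretion.

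The promoters of the 2 rule genes, of Ezr and of the C-type lectin-like gene Clec2h, which had the highest ratio against the remaining cells among genes with at least 50 counts over both groups, are shown because transcripts of the 4 genes were found in the same cells. They run from 250 bases before to 50 bases after the start of the gene, 5′ to 3′ on the gene's own strand, in RefSeq's GRCm38.p6 annotation, in which 106 of the 140 panel genes had an entry. The Aqp8 window is chr7:123462044-123462343 (plus strand), that of Slc26a3 is chr12:31437969-31438268 (plus strand), that of Ezr is chr17:6782731-6783030 (minus strand) and that of Clec2h is chr6:128662135-128662434 (plus strand). Capitals mark matches to TTTAT, the core read by CDX factors, or to the TATA box TATAAA, each searched on both strands.
Aqp8: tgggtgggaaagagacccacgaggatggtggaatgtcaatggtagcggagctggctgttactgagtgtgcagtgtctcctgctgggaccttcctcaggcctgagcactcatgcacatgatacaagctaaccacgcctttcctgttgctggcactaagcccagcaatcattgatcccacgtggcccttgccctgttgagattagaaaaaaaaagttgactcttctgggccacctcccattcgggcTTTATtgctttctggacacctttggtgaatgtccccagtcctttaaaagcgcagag
Slc26a3: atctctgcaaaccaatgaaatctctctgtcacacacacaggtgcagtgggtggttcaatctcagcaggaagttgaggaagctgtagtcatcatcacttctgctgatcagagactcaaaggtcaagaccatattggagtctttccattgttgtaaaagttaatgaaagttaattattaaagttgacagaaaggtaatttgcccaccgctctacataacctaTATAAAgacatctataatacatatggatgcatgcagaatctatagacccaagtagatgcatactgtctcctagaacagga
Ezr: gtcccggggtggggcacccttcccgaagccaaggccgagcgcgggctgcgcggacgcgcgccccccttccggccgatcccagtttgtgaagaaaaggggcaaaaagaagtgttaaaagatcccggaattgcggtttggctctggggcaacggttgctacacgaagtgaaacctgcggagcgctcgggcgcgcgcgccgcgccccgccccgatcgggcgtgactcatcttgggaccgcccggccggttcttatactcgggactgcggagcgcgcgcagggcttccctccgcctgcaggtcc
Clec2h: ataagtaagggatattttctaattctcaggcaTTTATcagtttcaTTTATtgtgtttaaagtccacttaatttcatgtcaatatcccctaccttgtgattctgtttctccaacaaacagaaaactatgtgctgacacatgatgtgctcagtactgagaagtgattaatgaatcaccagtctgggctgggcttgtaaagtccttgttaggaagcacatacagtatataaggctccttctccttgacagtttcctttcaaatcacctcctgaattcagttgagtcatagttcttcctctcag
Aqp8 held 1 TTTAT, 6 to 2 bases before the start, and Clec2h held 2, at 218 to 214 and 205 to 201 bases before it. Slc26a3 held a TATA box 30 to 25 bases before the start, and the single TTTAT on its opposite strand lay within those letters, so the 2 matches are not separate. Ezr held neither. The HNF4 motif CAAAGTCCA had no exact match in the 4 windows. Other forms of that motif were not searched, so the windows may hold such forms. Over all 32851 RefSeq promoters of this length, TTTAT was present in 40.01%, TATAAA in 13.6% and CAAAGTCCA in 0.475%, so a match to TTTAT is common.

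Aqp8-dominant cells were nearly absent elsewhere in the series. By the same rule, female region 0 held 1 such cell among 77 cells with at least 10 counts, and the male regions held 0 among 55 and 0 among 4. Aqp8 gave 20 counts in female region 0, against 33 for the highest of its blank barcodes, which match no gene and measure false reads. It gave 9 and 7 counts in male regions 0 and 1, against 9 and 2 for the highest blank. These regions held 3048, 582 and 4288 panel counts (male 0, male 1, female 0), against 45942 in female region 1, where blanks took 1.23% of counts. The 4 tables shared no cell identifier. All values below come from 1 section of 1 animal, so there is no replicate and no test, and the 95% intervals in brackets (exact Poisson for levels, Clopper-Pearson for shares and ratios) cover counting error only.

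The 273 cells held 58.7% of the Aqp8 counts of their region, 35.8% of its Ezr counts and 30.2% of its Slc26a3 counts, with 18.6% of its panel counts. Aqp8 ranged from 3 to 30 counts per cell, with a median of 7. Slc26a3 ranged from 0 to 17 with a median of 3, and 161 of the cells also had at least 3 Slc26a3 counts while 21 had none. The cells are thus mostly rich in both transcripts, and few carry Aqp8 alone. Their panel totals ran from 10 to 107 with a median of 26, deeper than the median of 14 in the remaining 983 cells.

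**Figure D1:**
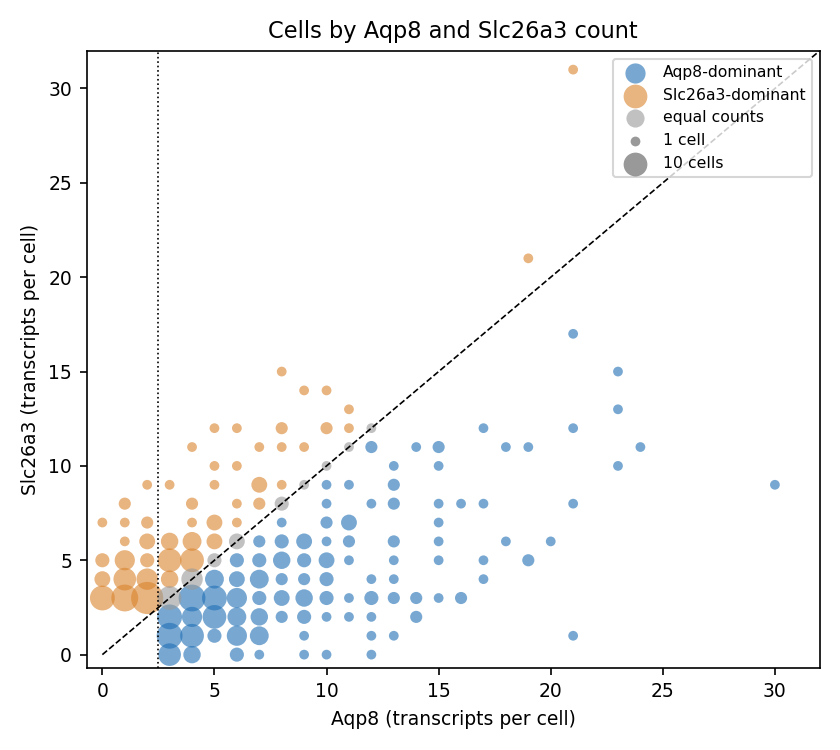
Aqp8 counts per cell (horizontal) against Slc26a3 counts per cell (vertical) for cells of female region 1 with at least 10 panel counts that were Aqp8-dominant, Slc26a3-dominant or equal with at least 3 of each; dot area grows with the number of cells. The dashed line marks equal counts and the dotted line the minimum of 3 Aqp8 counts, and the 273 Aqp8-dominant cells lie below the first and right of the second with no gap on either side.

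Many cells lay near the boundary of the rule. Among the 471 cells that were Aqp8-dominant (273), Slc26a3-dominant (166, at least 3 Slc26a3 counts and more Slc26a3 than Aqp8) or equal with at least 3 of each (32), the share of Aqp8 in the sum of both genes had a median of 57.7% and quartiles of 40% and 72.3%. The variance of that share was 1.60 times what drawing the counts at 1 common share would give. The minimum of 3 counts that defines the groups bears on this value. Among the 365 cells with a sum of both genes of at least 6 it was 1.52. In 114 of the 471 cells (24.2%) the 2 genes lay within 1 count of each other, so many assignments turn on a single transcript. Of the Aqp8-dominant cells, 39 were only 1 count above and 166 had at least 2 times as much Aqp8 as Slc26a3. These are the counts the cells were chosen by, so the groups are ranges of the Aqp8 to Slc26a3 balance and are not offered as cell types.

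The remaining cells were a mixture. Aqp8 was not counted in 643 of the 983 and was counted at least 3 times in 109, and 166 of them were the Slc26a3-dominant cells. Cells with neither rule gene numbered 508, with a median total of 13. Levels below are summed counts per 10000 panel counts with Aqp8 and Slc26a3 left out of the total, because the rule raised those 2. On this basis the Aqp8-dominant cells held 5302 counts and the remaining cells 14455. Of the 138 other genes, 35 had more counts in Aqp8-dominant cells than their highest blank, which reached 18, and 15 had none.

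Against the remaining cells, Aqp8-dominant cells had higher levels of Ezr, Prdx6, Clec2h and Shroom3 and lower levels of stromal and muscle genes. Ezr and Prdx6, the 2 genes of the absorptive colonocyte list that the rule did not use, were both more than 2-fold higher. That list was chosen with earlier results of these data known, so this is a description and does not name a cell type. Among the 52 genes with at least 50 counts over both groups, 9 (17.3%) were at least 2-fold higher and 23 (44.2%) at least 2-fold lower, with a median ratio of 0.562. When Aqp8 and Slc26a3 were kept in the total, 0 genes were 2-fold higher and 29 lower, with a median ratio of 0.406, so the split between higher and lower genes depends on this choice. Blank barcodes were also higher in Aqp8-dominant cells, at a mean of 5.89 per 10000 against 3.48 for each blank, a ratio of 1.70 (1.35 to 2.13), or 1.22 (0.972 to 1.54) with both rule genes in the total. With the mean blank subtracted, the number of 2-fold higher genes stayed 9 and that of lower genes was 24.

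Ezr was counted 0 to 22 times per Aqp8-dominant cell with a median of 4, and 0 to 20 times per remaining cell with a median of 0. Its level was 2426 per 10000 (2295 to 2562) against 939 (890 to 991), a ratio of 2.58 (2.39 to 2.79). Prdx6 was counted 0 to 9 times per Aqp8-dominant cell with a median of 1, and its level was 837 (761 to 919) against 308 (280 to 338), a ratio of 2.72 (2.38 to 3.11). The ranges over single cells overlapped for both genes. Both ratios were smaller when cells with any count of a stromal, muscle or neuronal marker were left out of both groups, at 1.49 (1.32 to 1.68) for Ezr and 1.46 (1.19 to 1.78) for Prdx6. Both were also smaller among cells with at least 25 counts, at 1.60 (1.44 to 1.78) and 1.58 (1.32 to 1.90). Against the 508 cells with neither rule gene, a comparison chosen after seeing the data, the ratios were 11.1 (9.43 to 13.1) and 20.0 (13.9 to 29.6). The size of the difference therefore follows which cells it is set against.

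Shares of cells gave the same order at an equal panel total. That total includes Aqp8 and Slc26a3, and other genes held 5302 of 8528 counts in Aqp8-dominant and 14455 of 16795 in remaining cells. Thinned cells of the 2 groups therefore still differ in depth for the other genes. Ezr was detected in 90.8% of Aqp8-dominant and 47.8% of remaining cells, and after thinning each cell to 10 panel counts in 75.1% (69.5 to 80.1) and 40.4% (37.3 to 43.5). Prdx6 was detected in 70.7% and 25.4%, or 37.0% (31.3 to 43.0) and 16.5% (14.2 to 18.9) after thinning. In the 93 cells with at least 3 counts of the muscle gene Des, taken as a background of cells that should lack these genes, Ezr was detected in 5.38% (1.77 to 12.1) and Prdx6 in 1.08% (0.0272 to 5.85) at a median total of 17. Detection in Aqp8-dominant cells thus lay well above that background.

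Of the apical cytoskeleton and polarity list, 4 genes were on the panel and 2 of them were at least 2-fold higher, 1 was lower and 1 was neither, against 17.3% higher and 44.2% lower over all 52 genes. Shroom3, which drives actin contraction at the cell apex, was counted 0 to 21 times per Aqp8-dominant cell with a median of 2, and its level was 1386 against 666, a ratio of 2.08 (1.89 to 2.30). Without cells carrying stromal, muscle or neuronal counts that ratio was 1.15 (0.986 to 1.33). Ctnnb1, encoding the junction and Wnt protein β-catenin, stood at 653 against 493 per 10000 (ratio 1.32, 1.16 to 1.51). With both rule genes in the total its ratio was 0.957 (0.839 to 1.09), so its direction was not stable. Pard3, a polarity scaffold, was 2.43-fold lower on 11 counts in Aqp8-dominant cells.

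Other genes at least 2-fold higher belonged to no fixed list. Clec2h was detected in 36.6% of Aqp8-dominant cells, in which it was counted up to 5 times, and its level was 257 per 10000 (215 to 303) against 92.7 (77.7 to 110), a ratio of 2.77 (2.16 to 3.54). The phospholipid flippase Atp10b was at 379 against 183 (ratio 2.07, 1.71 to 2.49), although this ratio was 0.875 (0.64 to 1.19) without cells carrying stromal, muscle or neuronal counts. The adiponectin receptor Adipor2 was at 115 against 56.7 (2.03, 1.43 to 2.86). Also past 2-fold were 3 low genes: the proprotein convertase Pcsk5 with 36 counts in Aqp8-dominant cells (2.34, 1.45 to 3.74), the ABC transporter Abca8b with 32 (2.24, 1.36 to 3.66) and the synaptotagmin Syt4 with 36 (2.23, 1.40 to 3.55). The semaphorin Sema6a (1.75, 1.23 to 2.46) and the growth factor receptor Egfr (1.66, 0.999 to 2.71) followed. Without cells carrying stromal, muscle or neuronal counts, the ratio was 1.75 (1.19 to 2.59) for Clec2h, 1.15 (0.559 to 2.34) for Pcsk5, 1.11 (0.436 to 2.74) for Abca8b, 1.89 (0.863 to 4.22) for Syt4 and 1.29 (0.720 to 2.29) for Adipor2, so none of these stayed past 2-fold. All 11 of the named higher genes had more counts than the highest blank. That blank itself stood at 33.9 per 10000 in Aqp8-dominant against 11.8 in remaining cells, which limits what the 3 low genes can show.

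**Figure D2:**
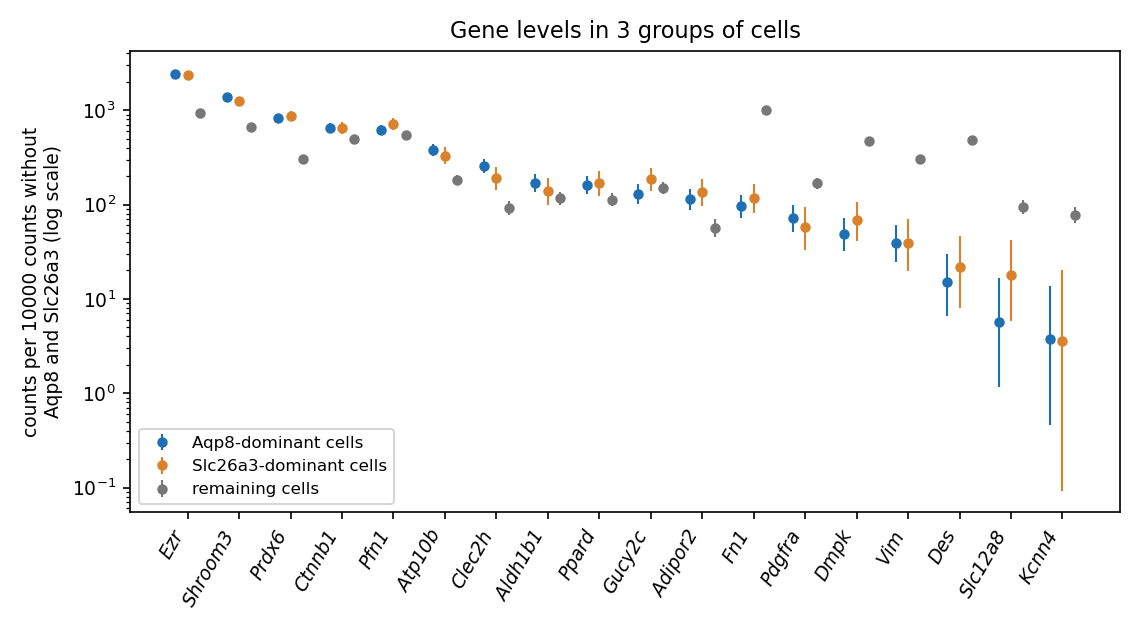
Summed level of 18 genes in the Aqp8-dominant, Slc26a3-dominant and remaining cells of female region 1, as counts per 10000 panel counts without Aqp8 and Slc26a3 (log scale), with bars for the exact 95% Poisson interval. Ezr is at 2426, 2347 and 939 in the 3 groups in that order, while Des is at 15.1, 21.6 and 486; the Slc26a3-dominant cells are part of the remaining cells.

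Of the crypt chloride secretion and guanylin receptor list, 5 genes were on the panel, 4 reached 50 counts, and 3 of these were at least 2-fold lower, against 44.2% of all 52 genes. These 3 reached 50 counts only through the remaining cells, where they were high, so the count is a description of which genes could be compared. Cftr had 0 counts in Aqp8-dominant cells and 49 in the remaining cells, a ratio of 0 (0 to 0.213). With 3 counts over the group set as a floor, Cftr was 5.99-fold lower, a value that depends on that choice of floor. Kcnn4 had 2 counts against 113 (ratio 0.048, 0.0058 to 0.178), Slc12a8, a member of the cation-chloride cotransporter family, had 3 against 136 (0.060, 0.012 to 0.18), and the potassium channel Kcnq1 had 6 against 71 (0.230, 0.082 to 0.527). These counts in Aqp8-dominant cells were all under the highest blank of 18, so the ratios depend on the level of false reads. Gucy2c, the receptor for guanylin, did not follow them, at 130 per 10000 (101 to 165) against 150 (131 to 171), a ratio of 0.867 (0.651 to 1.14).

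All 6 stromal genes and both smooth muscle genes that reached 50 counts were at least 2-fold lower in Aqp8-dominant cells, against 44.2% of all 52 genes. Apart from Fn1, none reached 50 counts in the Aqp8-dominant cells themselves, so they could be compared only through the remaining cells. Pdgfra, at 0.428 (0.296 to 0.605), stood at 0.818 (0.486 to 1.37) among cells with at least 25 counts. Des, the muscle intermediate filament, had 8 counts against 703 and was 32.2-fold lower (ratio 0.031, 0.013 to 0.061). Within identifier blocks, groups of cells described at the end, its ratio was 0.0755. Fn1, encoding the matrix protein fibronectin, was at 96.2 per 10000 (71.6 to 127) against 1002 (951 to 1055), 10.4-fold lower, and was detected in 14.3% of Aqp8-dominant against 52.0% of remaining cells. The kinase gene Dmpk (ratio 0.103, or 0.181 within those blocks) and the intermediate filament gene Vim (0.129) had 26 and 21 counts in Aqp8-dominant cells, and with Fn1 they were the only ones among the 12 lowest named genes above the highest blank. The other 8 of those 12 besides Des, namely Kcnn4, the scramblase gene Ano6, Slc12a8, the co-receptor Nrp2, the guidance factor Slit3, the basement membrane collagen Col18a1, the stretch channel Piezo1 and the semaphorin Sema5a, had 1 to 4 counts each, with ratios of 0.048 to 0.167.

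**Figure D3:**
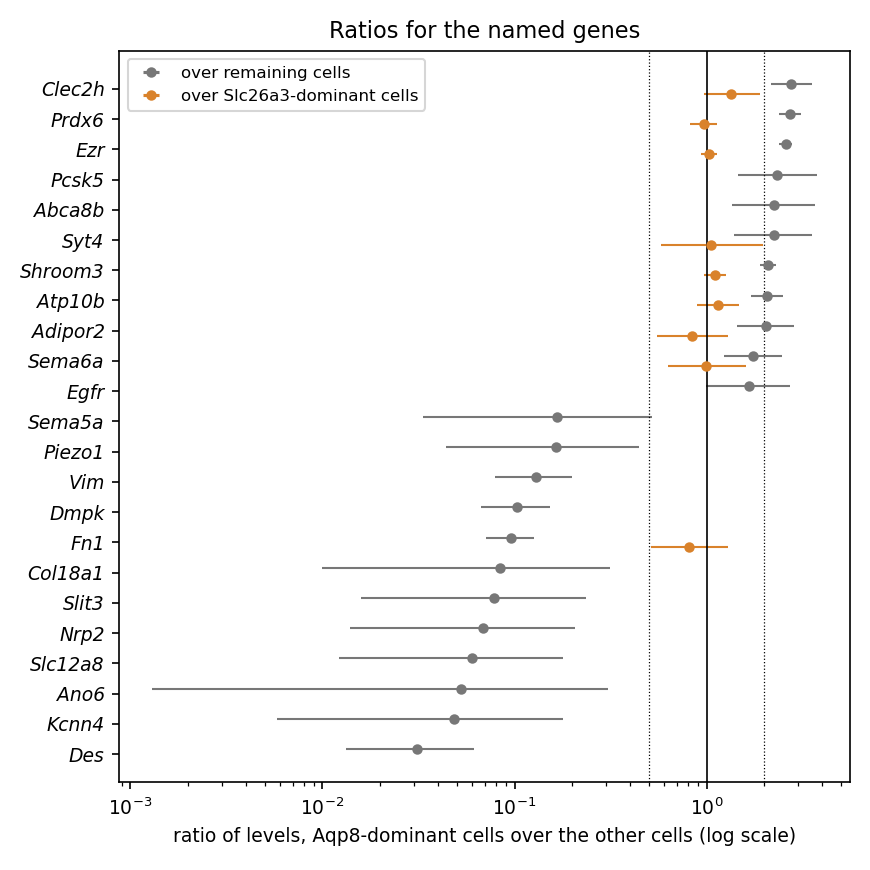
Ratio of levels (log scale) in Aqp8-dominant cells over the remaining cells, and over Slc26a3-dominant cells where at least 50 counts were reached, for the genes named by the largest ratios against the remaining cells, with exact 95% intervals. Against the remaining cells the points run from 0.031 for Des to 2.77 for Clec2h; against Slc26a3-dominant cells those drawn lie between 0.811 and 1.35, and dotted lines mark 2-fold either way.

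Some genes counted inside Aqp8-dominant cells stood in other proportions to Fn1 than in the remaining cells, and some did not. For every 100 Fn1 counts there were 74.5 counts of the growth factor receptor Pdgfra (47.6 to 116) in Aqp8-dominant cells against 16.7 (14.5 to 19.1) in the remaining cells. Vim stood at 41.2 (23.5 to 69.7) against 30.6 (27.5 to 34.1), with intervals that overlap. Plce1, which is on no stromal list, encoding phospholipase C epsilon, stood at 161 (112 to 233) against 21.9 (19.3 to 24.7) per 100 Fn1, and the muscle gene Des at 15.7 (6.43 to 33.3) against 48.5 (44.3 to 53.1). Des had 8 counts in Aqp8-dominant cells, under the highest blank of 18, and Vim had 21, so both proportions depend on false reads. In Slc26a3-dominant cells Pdgfra stood at 48.5 (24.9 to 90.6) per 100 Fn1, an interval that overlaps that of Aqp8-dominant cells. Of the Aqp8-dominant cells, 45.4% (39.4 to 51.5) held at least 1 count of the 16 stromal, muscle or neuronal markers, against 74.1% (71.2 to 76.8) of the remaining cells, and after thinning to 10 counts 19.4% (14.9 to 24.6) against 65.8% (62.8 to 68.8). The 10 counts include both rule genes, which left fewer counts for these markers in Aqp8-dominant cells. In the median Aqp8-dominant cell stromal, muscle and neuronal markers each made up 0% of counts. Whether these transcripts came from neighbouring cells was not tested.

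Markers of the enteric nervous system were scarce. The 7 neuronal markers summed to 62.2 per 10000 (42.8 to 87.4) in Aqp8-dominant and 85.8 (71.4 to 102) in remaining cells, with Chrna3 at 0, and the 7 glial markers to 92.4 (68.4 to 122) and 86.5 (72.0 to 103). Each of these genes had fewer counts in Aqp8-dominant cells than the highest blank, the most being 15 for Snap25 and 14 for S100b. The gland mucin Muc6 had 0 counts.

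The nearest cells were the Slc26a3-dominant ones, and besides the rule genes few panel genes that could be compared differed from them by 2-fold. Of 22 genes with at least 50 counts over both, 1 (4.55%) was at least 2-fold higher in Aqp8-dominant cells and 0 (0%) at least 2-fold lower, with a median ratio of 1.00. Ezr stood at 2426 against 2347 per 10000 (2171 to 2534), a ratio of 1.03 (0.940 to 1.14), and Prdx6 at 837 against 866 (760 to 983), a ratio of 0.967 (0.825 to 1.14). Shroom3 (1.10, 0.969 to 1.25), Ctnnb1 (1.00, 0.836 to 1.21) and Atp10b (1.15, 0.891 to 1.48) had intervals that include 1. Cells with at least 1 stromal, muscle or neuronal count were 45.4% and 46.4% of the 2 groups, and the ratio of blank levels was 0.911 (0.676 to 1.23). The median total was 26 in Aqp8-dominant and 20.5 in Slc26a3-dominant cells.

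Lesser differences pointed both ways. Gucy2c had a ratio of 0.696 (0.479 to 1.02) and Clec2h of 1.35 (0.974 to 1.89), each with an interval that includes 1. The stretch channel gene Piezo2 had 13 counts against 2, too few in both groups to exceed the highest blank of 18 and 8.

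Ordered by balance, from at least 2 times as much Slc26a3 as Aqp8 to at least 2 times as much Aqp8 as Slc26a3, the 5 steps held 82, 84, 32, 107 and 166 cells with median totals of 17, 26, 23.5, 31 and 23. Ezr stood at 2042, 2556, 2277, 2411 and 2437 per 10000 over these steps, lowest where Slc26a3 led most, and Shroom3 at 1096, 1369, 1518, 1336 and 1429, likewise lowest there. Prdx6 stood at 840, 884, 797, 804 and 866. Clec2h stood at 150, 218, 133, 239 and 271, and Gucy2c at 212, 170, 114, 132 and 129. The intervals of neighbouring steps overlapped for all 5 genes. For Ezr the first 2 steps came closest to separation, at 1788 to 2324 and 2318 to 2812.

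**Figure D4:**
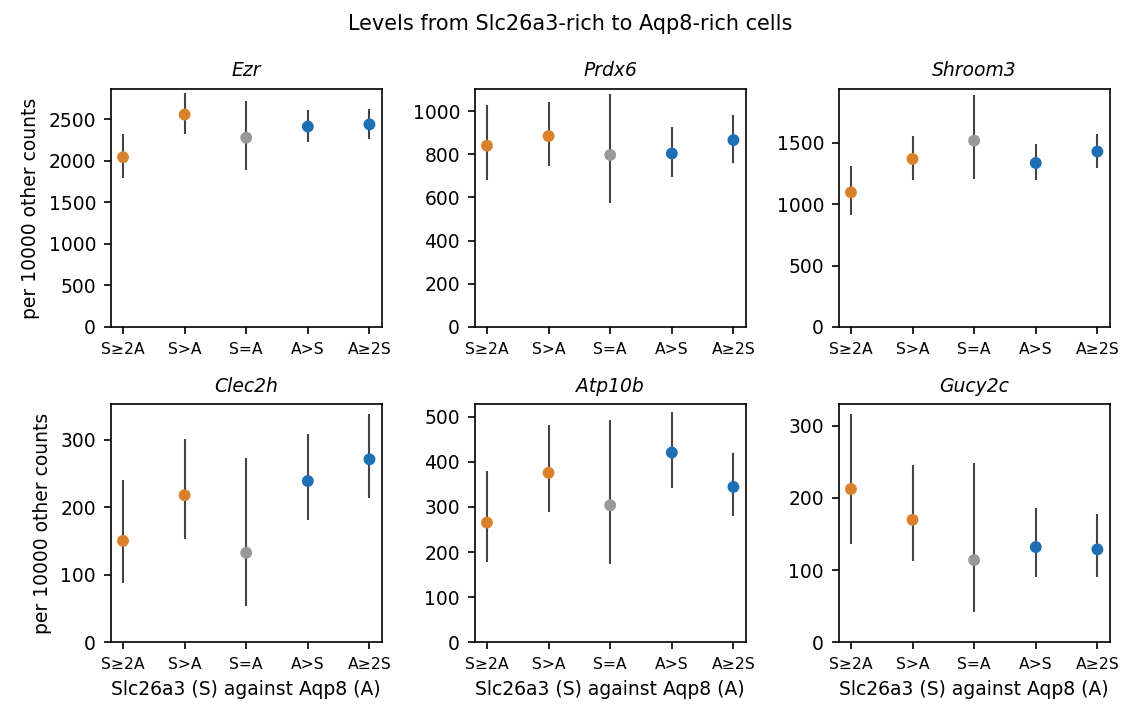
Levels per 10000 panel counts without Aqp8 and Slc26a3 in 5 steps from Slc26a3-rich to Aqp8-rich cells (82, 84, 32, 107 and 166 cells), where S is the Slc26a3 count, A the Aqp8 count, S>A and A>S exclude cells at 2 times or more, and bars are exact 95% Poisson intervals. Ezr is at 2042 in the most Slc26a3-rich step and at 2277 to 2556 in the others, Clec2h is at 150 and 271 in the first and last step, and Prdx6 stays between 797 and 884.

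Within the Aqp8-dominant cells, those with more Aqp8 also had more Slc26a3 for their other counts. The bins with 3, 4 to 5, 6 to 9 and 10 or more Aqp8 counts held 32, 65, 92 and 84 cells, with median totals of 12.5, 20, 25 and 47.5. Slc26a3 was at 955, 1659, 1900 and 2041 per 10000 other counts, a ratio of the highest to the lowest bin of 2.14 (1.51 to 3.12); the rule allows more Slc26a3 where Aqp8 is higher, so this is a description. Ezr was at 1966, 2297, 2300 and 2608, a ratio of 1.33 (1.04 to 1.72). Shroom3 ran the other way, at 1798, 1508, 1468 and 1239, a ratio of 0.689 (0.526 to 0.916), but counted per cell its ratio was 1.89, as totals were higher in cells with more Aqp8. Prdx6 had a ratio of 1.56 (0.985 to 2.60). Fn1 was at 225, 46.4, 131 and 74.3, in no steady order. Its ratio of the highest to the lowest bin was 0.331 (0.138 to 0.873), on 8 counts in the lowest bin.

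**Figure D5:**
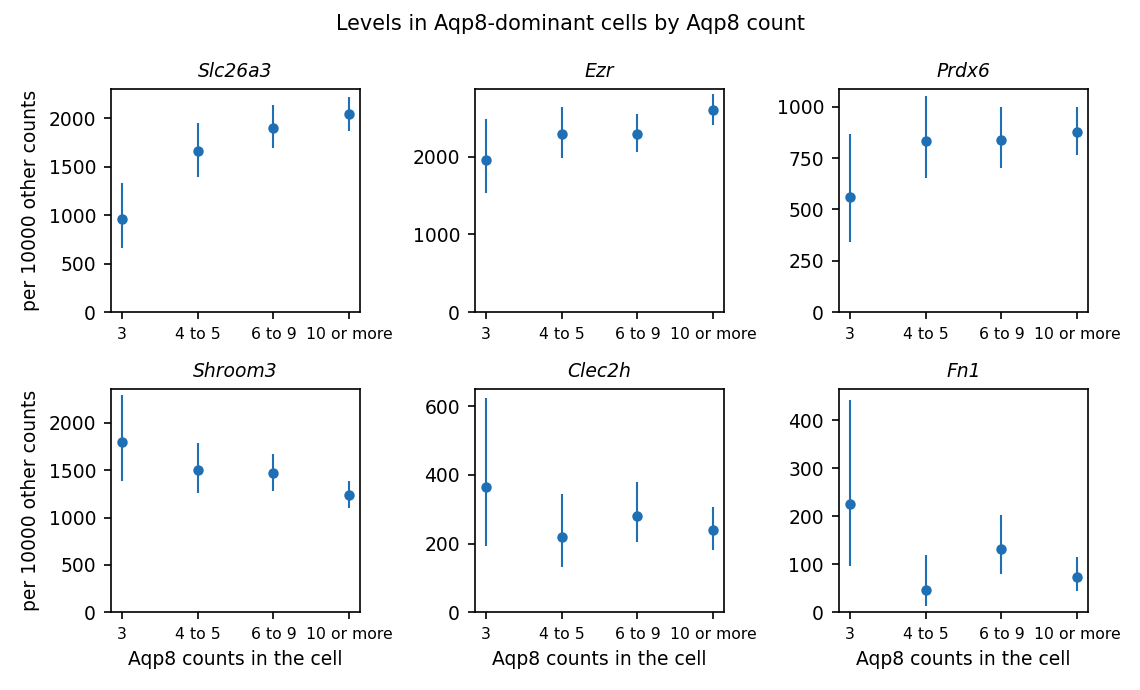
Levels per 10000 panel counts without Aqp8 and Slc26a3 in Aqp8-dominant cells with 3, 4 to 5, 6 to 9 or 10 or more Aqp8 counts (32, 65, 92 and 84 cells), with exact 95% Poisson intervals. Slc26a3 goes from 955 to 2041 and Ezr from 1966 to 2608 between the lowest and highest bin, while Shroom3 goes from 1798 to 1239.

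Over all 1256 cells, the genes whose share of a cell's panel total was most like that of Aqp8 were Ezr (Pearson r = 0.406), Prdx6 (0.288), Shroom3 (0.161), Clec2h (0.134) and Adipor2 (0.0792), with Slc26a3, the other rule gene, at 0.457. Fn1 stood at -0.380. These values describe cells of 1 section whose shares have a common total, which ties the genes to each other, and Aqp8 is also what the rule used. Within the 273 Aqp8-dominant cells, with counts taken per count outside the rule genes, r was 0.0987 for Ezr, -0.0689 for Prdx6 and 0.0112 for Shroom3. Slc26a3 stood at 0.399, and among genes besides the rule's r was highest for Aldh1b1 (0.374) and Kcnq1 (0.320), the latter on 6 counts. Aqp8 and each gene were divided by the same counts, as few as 2 in a cell, which also ties these values to each other.

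Levels just inside and just outside the thresholds of the rule were as follows. Cells with exactly 3 Aqp8 counts, just inside, had an Ezr level of 1966 (1533 to 2484), and 45 cells with 2 Aqp8 counts and fewer of Slc26a3, just outside, had 1935 (1576 to 2351). Cells with Aqp8 1 count above Slc26a3 had 2320 (1961 to 2725), and the 32 equal cells had 2277 (1888 to 2723). Cells just inside the total, at 10 to 12 counts, had 2247 (1605 to 3060), and 35 cells under 10 counts that met the other conditions had 1508 (908 to 2355). Prdx6 stood at 730 (389 to 1249) and 1429 (847 to 2258) in those same cells, so at this threshold the values moved in opposite directions with wide, overlapping intervals.

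Cell identifiers fall into 48 blocks by their leading digits, whose meaning is not given in the sources used here. Of these, 33 held cells with at least 10 counts and 23 held Aqp8-dominant cells, of which the 5 fullest blocks held 54.2%. In the 18 blocks with at least 20 cells of that depth, the Aqp8-dominant share ran from 0% to 58.1% with a median of 17.9%. Aqp8-dominant and Slc26a3-dominant cells occurred together in 19 blocks. The balance of the 2 rule genes by block was taken over the 471 Aqp8-dominant, Slc26a3-dominant and equal cells only. In the 14 blocks where these cells held at least 100 counts of the 2 genes, Aqp8 made up from 48.6% (44.6 to 52.7, 62 cells) to 71.2% (63.2 to 78.4, 18 cells) of those counts, with a median of 58.0%. The same 2 genes chose these cells, so the shares are a description. Ezr was higher in Aqp8-dominant than in remaining cells in 12 of the 13 blocks with at least 5 Aqp8-dominant cells, with ratios of 0.993 to 5.71 and a median of 2.42.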

How the data were processed

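Tables of transcript counts were deposited for 2 regions in each of 2 animals. The deposited values are counts of transcripts of 1 gene in 1 segmented cell, per the file headers, with 140 genes and 40 blank barcodes in each table. Sections were 10 µm thick, fixed and stained for cell boundaries, per the labels' protocols. The submitters' processing notes name Seurat. No label or header gives the settings for decoding transcripts or outlining cells.

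The members and gene lists were chosen with earlier results of these data known. Blanks were left out of totals. Of the series, 273 cells met the rule, with 31893 cells in all. Cells below 10 panel counts were left out, and no doublets or mixed cells were removed. Counts were summed over cells, scaled to 10000 panel counts without Aqp8 and Slc26a3, and compared as ratios. With 1 section there is no test. A gene counted as past the fold at 2-fold or more, with at least 50 counts over both groups. Named genes were the up to 12 highest and 12 lowest ratios of at least 1.5-fold against the remaining cells, up to 8 each way against Slc26a3-dominant cells, and members of the lists. Some items that this rule reaches are not reported here. Thinning drew 10 counts per cell once, with both rule genes included. The ratio code was tested on simulated data. Software was Python 3.11.15, numpy 2.4.6, pandas 2.3.3, scipy 1.17.1 and matplotlib 3.10.9.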

Additional observations from a re-analysis of the deposited data

Results flagged for a closer look

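The 35 cells with fewer than 10 panel counts that otherwise met the rule lie outside every comparison and still held 19 counts of Ezr in 17 cells and 18 counts of Prdx6. Their totals ran from 4 to 9 panel counts.

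The most frequent blank barcode in Aqp8-dominant cells reached 18 counts, 1 in each of 18 cells, where the next blank had 12. In the remaining cells the same blank had 17 counts.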

How the results depend on the processing

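Of the values recomputed under other choices, 581 moved little, 144 moved by more than their interval or by over 1.5 times, and 5 changed direction; the cause was not tested. The number of cells, 273, was 144 at a minimum of 25 counts, 166 with Aqp8 at least 2 times Slc26a3 and 178 after thinning to 10 counts. The ratios of Ezr (2.58) and Prdx6 (2.72) to the remaining cells became 3.11 and 3.48 at a minimum of 5 counts, 1.60 and 1.58 at 25, 2.12 and 2.28 with Aqp8 at least 2 times Slc26a3, 1.86 and 1.97 scaled to all panel counts, 3.41 and 3.59 per cell, 3.08 and 3.17 without the deepest 5% of cells, and 1.49 and 1.46 without cells carrying stromal, muscle or neuronal counts. Chosen after seeing the data, ratios within identifier blocks were 2.03 and 2.00, and against cells with neither rule gene 11.1 and 20.0. Genes 2-fold higher (9) numbered 2 at 25 counts, 5 at 5 Aqp8 counts, 0 scaled to all panel counts, 0 without cells carrying stromal, muscle or neuronal counts, 3 within blocks, 19 with no count minimum and 0 at 4-fold. Genes 2-fold lower (23) numbered 38 at a minimum of 5 counts, 5 at 25, 2 without such cells, 60 with no count minimum, 15 at 100 counts and 13 at 4-fold. Ezr against Slc26a3-dominant cells (1.03) was 0.909 at 25 counts, 1.19 with Aqp8 at least 2 times Slc26a3, 1.20 per cell, 1.18 with cells weighted equally and 1.14 without cells carrying other layers' counts. Detection of Ezr was 75.1% thinned and 96.5% at 25 counts in Aqp8-dominant cells, and 40.4% and 68.3% in remaining cells. The Ezr ratio of highest to lowest Aqp8 bin (1.33) was 3.63 per cell, and the share of cells with stromal, muscle or neuronal counts (45.4%) was 19.4% thinned. Directions changed for Atp10b (0.875), Ppard (0.876) and Ctnnb1 (0.928) against the remaining cells without cells carrying such counts, for Ctnnb1 (0.957) scaled to all panel counts, and for Shroom3 across bins per cell (1.89). The intervals of the changed ratios of Atp10b (0.64 to 1.19) and Ctnnb1 (0.750 to 1.15 and 0.839 to 1.09) include 1, so their new direction is not settled.

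The cells come from 1 section of 1 animal, and no region of the other animal held any, so no value has a replicate. No paired analysis was possible because each animal is a group of its own and no test was made. Of 138 genes besides the rule's, 103 had no more counts in these cells than the highest blank, which limits what low genes can show. Identifier blocks have no stated meaning.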

Other observations

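Of genes not described above, 3 are given here by their values, chosen after these were seen. The mitochondrial aldehyde dehydrogenase Aldh1b1 stood at 170 per 10000 panel counts without the rule genes (137 to 209) against 116 (99.3 to 135), a ratio of 1.46 (1.12 to 1.90) against the remaining cells, which became 1.06 (0.808 to 1.37) scaled to all panel counts and 1.10 (0.719 to 1.68) without cells carrying stromal, muscle or neuronal counts. The fatty acid receptor Ppard stood at 162 (130 to 200) against 113 (96.1 to 132), a ratio of 1.44 (1.10 to 1.88), which became 1.04 (0.791 to 1.36) scaled to all panel counts and turned to 0.876 without cells carrying stromal, muscle or neuronal counts. The actin-binding profilin Pfn1 (1.13, 0.995 to 1.29) had an interval that includes 1, and stood at 0.820 (0.718 to 0.934) scaled to all panel counts and 0.738 (0.594 to 0.914) without such cells.

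The other nuclear receptors and transcription factors on the panel were too low to compare, with 8 counts of Hes1, 6 of Nr5a2 and 7 of Ppara in Aqp8-dominant cells. The glucose transporter Slc2a2 had 3 counts there. The matrix collagen gene Col12a1 had 15 counts, of which 5 lay in 1 cell.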
